A study of Mus musculus with 9 samples.

Results

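The tricarboxylic acid (TCA) cycle genes and the genes that bring pyruvate into it were followed in mouse kidney after ischemia and reperfusion. The 35 genes were the rows of the deposited tables whose Ensembl identifier carries one of 35 fixed symbols in GENCODE M21, among 29678 genes in all, and the subunits of succinate dehydrogenase (respiratory complex II) were among them. The rule names the genes by function and uses no expression value, though earlier results of these data were known, and all 35 passed the filter on low counts, as did 17967 genes in total. The smallest count of any of the 35 in a library was 232, for Pdp1.

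Kidneys came from sham-operated mice (Sham), from mice with both kidneys made ischemic and reperfused (bIRI), and from mice given BHB sodium, the sodium salt of the ketone body beta-hydroxybutyrate, before that injury (BHBNa_bIRI), at 24 h of reperfusion. The labels name 3 libraries in each of 3 groups and no strain, sex, age, genotype, dose or length of ischemia. They do not say whether libraries came from separate animals, so the p-values below measure the spread between libraries, which may be technical. The deposited table of bIRI replicate 2 equalled the rounded-down mean of bIRI replicates 1 and 3 in 100% of genes. It was left out, and 8 libraries of 33477985 to 45909063 counts were compared. No untreated kidney and no BHB-treated sham kidney was among the groups. The injured groups share the operation, and the pretreatment is the only difference between them that the labels give.

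Pyruvate enters mitochondria through a carrier made of MPC1 and MPC2. The pyruvate dehydrogenase complex turns it into acetyl-CoA, and is switched off by its kinases (PDK) and on by its phosphatases (PDP), while pyruvate carboxylase turns pyruvate into oxaloacetate. The cycle condenses acetyl-CoA with oxaloacetate and oxidizes the product back to oxaloacetate. Cytosolic partners of its enzymes convert malate, citrate and isocitrate outside mitochondria. Proximal tubule cells are rich in mitochondria, oxidize mainly fatty acids, and use pyruvate carboxylase for gluconeogenesis. Ketone bodies also enter the cycle as acetyl-CoA. The proximal tubule marker Slc34a1 was at 5392, 4424 and 5041 counts-per-million (CPM) in Sham, a high level that fits the labelled tissue.

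Promoter windows are shown for the 4 genes on which the comparisons turn. Pcx and Pdk2 had the largest falls after injury, and Pdha1 and Dld had the largest falls that were called with the pretreatment. RefSeq windows on GRCm38.p6 were found for 32 of the 35 genes, 43 windows in all, since some genes have several starts. Pcx and Pdk2 each have another window, at chr19:4594069-4594318 and chr11:95040876-95041125. These other windows held none of the motifs searched and are not shown. Each line gives 250 bases that end just before the RefSeq transcription start, 5′ to 3′ on the strand of the gene. Capitals mark matches of the E-box letters CACGTG. The windows are chr19:4510222-4510471 on the plus strand for Pcx, and on the minus strand chr11:95041372-95041621 for Pdk2, chrX:160138431-160138680 for Pdha1 and chr12:31351472-31351721 for Dld.
Pcx: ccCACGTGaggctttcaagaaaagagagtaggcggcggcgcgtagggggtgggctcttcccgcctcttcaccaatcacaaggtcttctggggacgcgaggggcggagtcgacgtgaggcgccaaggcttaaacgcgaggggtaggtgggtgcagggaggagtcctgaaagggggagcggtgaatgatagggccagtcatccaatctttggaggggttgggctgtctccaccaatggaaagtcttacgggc
Pdk2: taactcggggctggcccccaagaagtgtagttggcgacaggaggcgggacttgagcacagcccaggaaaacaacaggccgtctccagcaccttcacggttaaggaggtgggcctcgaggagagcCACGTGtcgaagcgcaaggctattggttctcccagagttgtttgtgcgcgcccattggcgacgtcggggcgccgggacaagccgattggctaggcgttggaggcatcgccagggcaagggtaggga
Pdha1: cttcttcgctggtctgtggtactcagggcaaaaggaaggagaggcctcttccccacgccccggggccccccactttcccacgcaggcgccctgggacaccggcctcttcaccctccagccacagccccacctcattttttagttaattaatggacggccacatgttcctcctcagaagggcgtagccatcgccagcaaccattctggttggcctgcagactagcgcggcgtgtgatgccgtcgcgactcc
Dld: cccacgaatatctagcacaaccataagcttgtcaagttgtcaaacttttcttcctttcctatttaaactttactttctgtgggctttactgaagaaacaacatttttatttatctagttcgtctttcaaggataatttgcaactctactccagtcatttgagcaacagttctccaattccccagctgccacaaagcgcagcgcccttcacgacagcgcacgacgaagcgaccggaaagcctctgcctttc

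The letters CACGTG stood in these windows of Pcx and Pdk2 and in windows of Ogdh and Pdp2, which made 12.5% of the 32 genes, beside 6.86% of the 27025 genes with a window. A gene was counted if any of its windows held the letters, and genes differ in their number of windows. Both strands of each window were searched for 4 further motifs. The NRF1 motif, GCGCA, then any base, then GCGC, was found for Sdha, Sdhd and Sucla2, or 9.38% of the 32, beside 4.23% of all genes. TGACGTCA, the cyclic AMP response element, was found for Mdh2 and Ogdh, or 6.25%, beside 1.77%. TNAAGGTCA, an extended nuclear receptor half-site, and CCGGAAGT, an ETS motif, were found in windows of 0 of the 32, beside 1.30% and 3.23% of all genes. The Pdha1 and Dld windows held none of the 5 motifs.

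**Figure D1:**
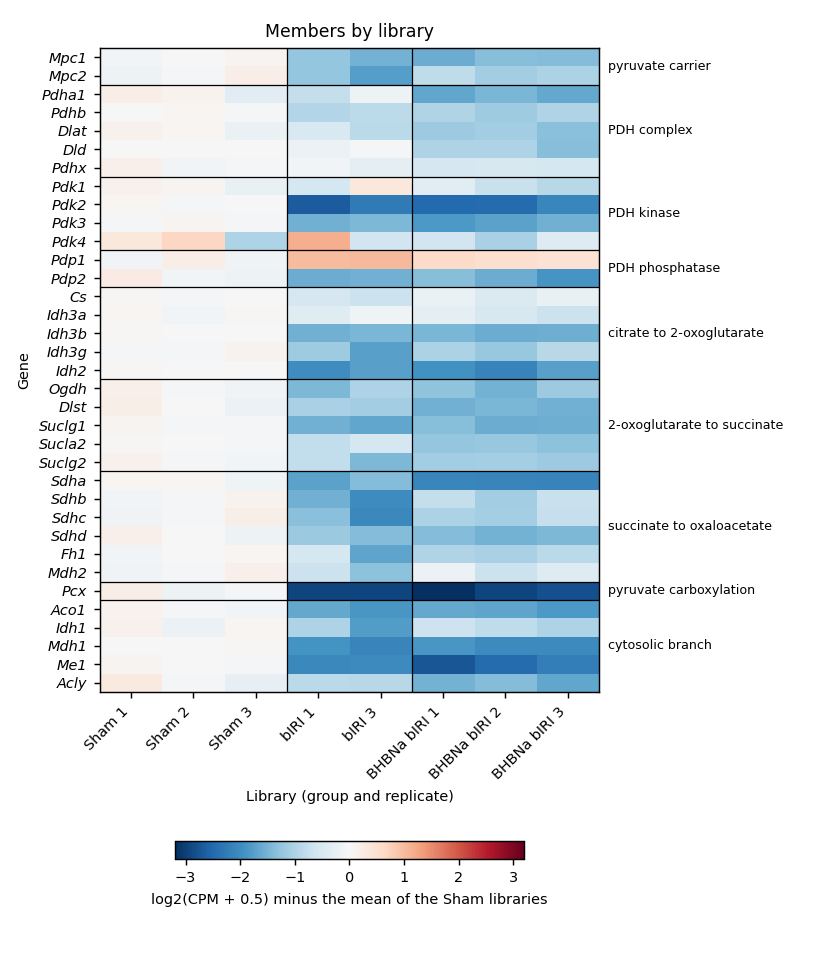
Levels of the 35 genes in each of the 8 libraries, as log2(CPM + 0.5) minus the mean of the Sham libraries, with genes ordered by role and blue for lower than Sham. Pcx is the darkest row in all 5 injured libraries, with Pdk2 or Me1 next, and Pdp1 is the row that is red in all 5.

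Most of the pathway fell after injury. Of the 35 genes, 28 fell in bIRI against Sham, 1 rose and 6 were not called by the edgeR quasi-likelihood test at an adjusted p of 0.05, with 16.2% of all 17967 genes tested called lower and 18.9% called higher. The median log2 fold change of the 35 was -1.30, beside 0.08 over all genes tested. The bIRI libraries lay wholly below the Sham libraries for 31 genes and wholly above for 1, beside 27.2% and 28.7% of all genes. The genes together made 14589 to 15550 CPM in Sham, 6015 and 5329 CPM in bIRI 1 and 3, and 5421 to 5977 CPM in BHBNa_bIRI. In bulk tissue, fewer cells of a type and less RNA per cell cannot be told apart.

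Few of the genes were called between the injured groups, and a gene not called is not shown to be the same in both. In BHBNa_bIRI against bIRI, edgeR called 1 gene higher (Sdhb) and 3 lower (Pdha1, Dld and Sucla2), and 31 were not called, while 4.88% of all genes tested were called higher and 8.65% lower. These counts were no larger a share of the 35 than the background. The median log2 fold change was -0.08, beside -0.05 over all genes. BHBNa_bIRI lay wholly above bIRI for 6 genes (Mpc2, Cs, Sdhb, Sdhc, Mdh2 and Idh1) and wholly below for 12, beside 22.2% and 23.8% of all genes. The 4 calls were sensitive to single libraries. Without Sham 1, Sham 2, BHBNa_bIRI 1 or BHBNa_bIRI 3 in turn, edgeR called 0 of the 35, with 9, 10, 10 and 7 of them at an unadjusted p under 0.05. Without bIRI 3 it called Dld alone, without Sham 3 Pdha1 and Dld, and without BHBNa_bIRI 2 Pdha1, Dld and Sdhb. Without bIRI 1 it called 7 genes higher and 5 lower. With either bIRI library left out, the lone bIRI library is assumed to vary like the other groups. DESeq2 called 2 higher and 5 lower.

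Against Sham, most of the genes were lower in the pretreated kidneys too. In BHBNa_bIRI against Sham, edgeR called 30 genes lower and 1 higher, and 4 (Pdk1, Pdk4, Cs and Mdh2) were not called, with 22.2% of all genes tested called lower and 21.3% higher. The median log2 fold change was -1.26, beside 0.04 over all genes. BHBNa_bIRI lay wholly below Sham for 33 genes and above for 1, beside 32.2% and 32.6% of all genes. The 3 comparisons share libraries, so their values for a gene are given side by side.

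**Figure D2:**
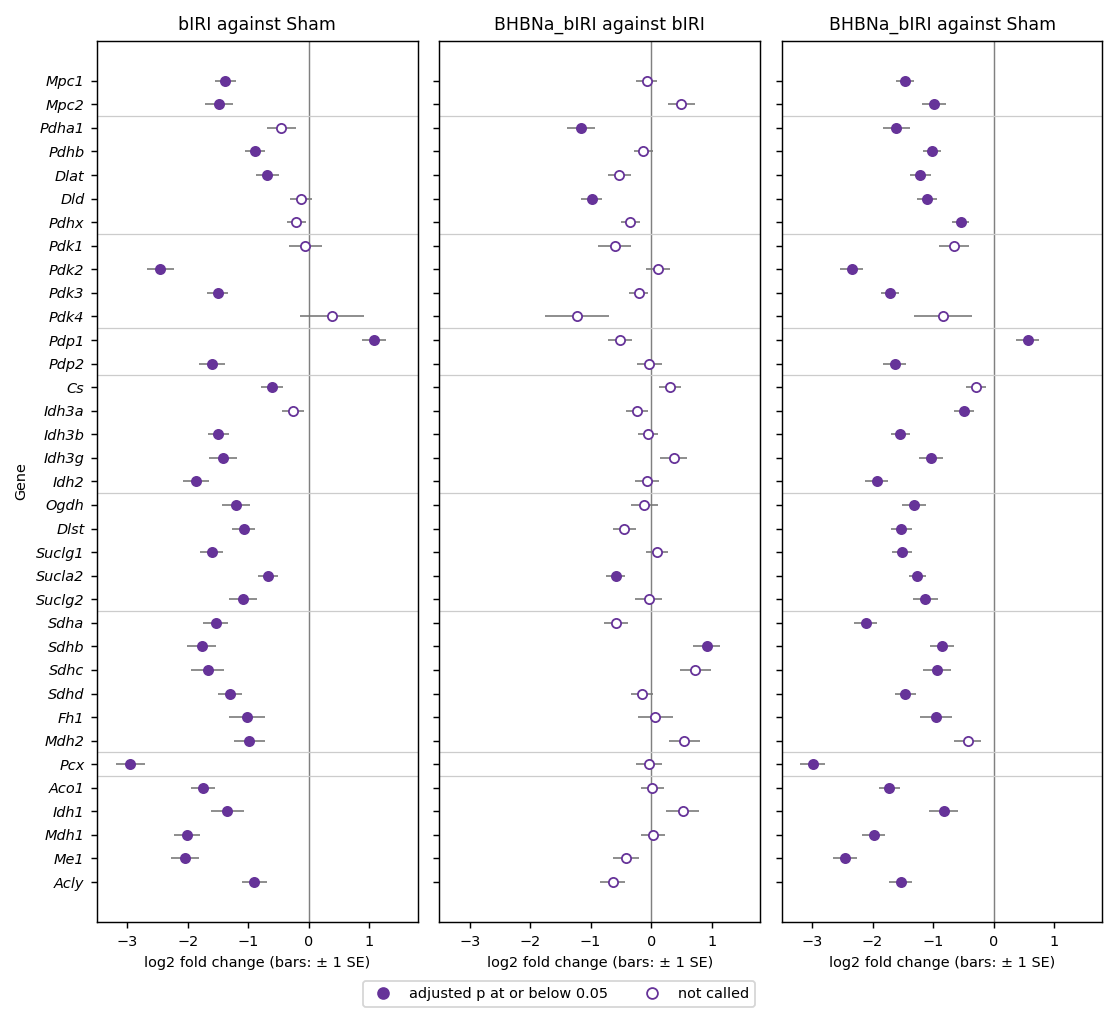
Log2 fold changes of the 35 genes in the 3 comparisons, with bars of ± 1 standard error and filled points for an edgeR adjusted p at or below 0.05. Most points lie left of 0 in both comparisons with Sham, and 4 points are filled in BHBNa_bIRI against bIRI.

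Values below are CPM, scaled by the TMM method, in the order of replicates 1, 2 and 3 for Sham and BHBNa_bIRI and replicates 1 and 3 for bIRI. They compare libraries for 1 gene and not genes with each other, since longer transcripts give more reads. Adjusted p-values are from edgeR and are corrected over all genes tested, and SE is the standard error of the log2 fold change.

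Both subunits of the mitochondrial pyruvate carrier fell after injury. Mpc1 was at 73.4, 79.5 and 82.7 CPM in Sham, 33.3 and 26.9 in bIRI, and 25.9, 30.1 and 29.7 in BHBNa_bIRI. Mpc2 was at 257, 278 and 334 CPM in Sham, 122 and 84.9 in bIRI, and 163, 132 and 143 in BHBNa_bIRI. For each gene every injured library was below every Sham library. The log2 fold change of bIRI against Sham was -1.38 for Mpc1 (SE 0.174, edgeR adjusted p = 0.000489) and -1.49 for Mpc2 (SE 0.230, edgeR adjusted p = 0.00133). With the pretreatment the values were -0.08 for Mpc1 and 0.50 for Mpc2, and edgeR called neither (adjusted p = 0.777 and 0.143). All 3 BHBNa_bIRI libraries of Mpc2 lay above both bIRI libraries, but the direction turned to -0.23 once length and GC trends were removed (described with transcript length). Mpc1 is uncertain, because an annotated processed pseudogene, Mpc1-ps, matches it at 100% identity over 261 bases and was counted at 39.3 to 164 CPM. Whether those reads came from Mpc1 or from the pseudogene was not tested. Also, 23.1% of the exonic length of Mpc1 overlaps the antisense gene 4930506C21Rik, counted at no more than 0.981 CPM.

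Of the 5 genes of the pyruvate dehydrogenase complex, 2 fell after injury, while 3 (Pdha1, Dld and Pdhx) were not called. Pdhb, the beta subunit of the E1 component that decarboxylates pyruvate, was at 191, 197 and 180 CPM in Sham, 97.8 and 106 in bIRI, and 97.5, 85.7 and 97.1 in BHBNa_bIRI. Dlat, the E2 component that forms acetyl-CoA, was at 200, 192 and 159 CPM in Sham, 129 and 99.5 in bIRI, and 81.8, 83.7 and 72.4 in BHBNa_bIRI. In both genes the injured libraries lay below all Sham libraries. The log2 fold change of bIRI against Sham was -0.89 for Pdhb (SE 0.167, edgeR adjusted p = 0.00343) and -0.68 for Dlat (SE 0.195, edgeR adjusted p = 0.0234). The Dlat call was lost without Sham 1, Sham 2 or bIRI 3, with edgeR adjusted p of 0.0779, 0.0768 and 0.0644.

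Pdha1 and Dld were the genes of the complex that were called lower in BHBNa_bIRI against bIRI. Pdha1, the E1 alpha subunit on which the kinases act (X, 160122209 to 160138413), was at 270, 253 and 185 CPM in Sham, 136 and 209 in bIRI, and 72.9, 84.3 and 75.0 in BHBNa_bIRI. Its Sham and bIRI libraries overlapped, and the 3 BHBNa_bIRI libraries were below all others. Dld, the E3 component that the complex shares with 2-oxoglutarate dehydrogenase (chromosome 12, 31331277 to 31351453), was at 198, 198 and 197 CPM in Sham, 174 and 190 in bIRI, and 99.3, 99.8 and 76.7 in BHBNa_bIRI. Its bIRI libraries were just below Sham, and its BHBNa_bIRI libraries were far below both. Pdha1 was 2.23-fold lower in BHBNa_bIRI than in bIRI (log2 fold change -1.16, SE 0.236, edgeR adjusted p = 0.0288), and Dld was 1.98-fold lower (-0.98, SE 0.178, edgeR adjusted p = 0.0275). In bIRI against Sham the same genes had log2 fold changes of -0.45 and -0.12, with edgeR adjusted p of 0.173 and 0.638. Exons of Map3k15, on the other strand, overlap 16.2% of the exonic length of Pdha1. Map3k15 itself was at 23.4 to 30.3 CPM in Sham, 5.32 and 14.5 in bIRI, and 1.47 to 3.04 in BHBNa_bIRI, and the labels do not say whether the counting used strand.

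The genes of the complex were at their lowest in the pretreated kidneys. Pdhx, which holds the E3 component in place, was at 43.4, 36.7 and 37.2 CPM in Sham, 36.5 and 31.5 in bIRI, and 26.8, 27.4 and 26.2 in BHBNa_bIRI. For all 5 genes of the complex the BHBNa_bIRI libraries lay wholly below the bIRI libraries, as they did for 23.8% of all genes. The log2 fold changes ran from -0.13 for Pdhb to -1.16 for Pdha1. Pdhb, Dlat and Pdhx were not called there (edgeR adjusted p = 0.611, 0.0849 and 0.159). The Pdhb groups were barely apart, at 97.5 CPM or less in BHBNa_bIRI and 97.8 or more in bIRI. With length and GC trends removed, none of the 5 was called in BHBNa_bIRI against bIRI. All 5 fell in BHBNa_bIRI against Sham, from -0.54 for Pdhx (edgeR adjusted p = 0.0133) to -1.61 for Pdha1 (edgeR adjusted p = 0.000481). The Pdhx call was lost without Sham 1 (edgeR adjusted p = 0.0625) and with length and GC trends removed, where its log2 fold change was -0.27 (edgeR adjusted p = 0.0962).

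Of the 4 kinases that shut the complex off, 2 fell after injury. Pdk2, the most abundant kinase per transcript length in Sham kidney (chromosome 11, 95026258 to 95041354), was at 376, 349 and 362 CPM in Sham, 57.2 and 74.7 in bIRI, and 64.0, 64.9 and 85.3 in BHBNa_bIRI. Every injured library was under every Sham library by a wide margin, and the injured groups overlapped. Pdk2 was 5.49-fold lower in bIRI than in Sham (log2 fold change -2.46, SE 0.225, edgeR adjusted p = 0.000123) and 5.07-fold lower in BHBNa_bIRI than in Sham (edgeR adjusted p = 3.46e-05). Pdk3 was at 67.3, 73.3 and 65.6 CPM in Sham, 23.4 and 25.0 in bIRI, and 19.0, 20.5 and 23.4 in BHBNa_bIRI. It fell by 1.51 on the log2 scale in bIRI against Sham (SE 0.169, edgeR adjusted p = 0.000284), with no overlap between Sham and injured libraries.

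Pdk1 and Pdk4 were not called by edgeR in any of the 3 comparisons. Pdk1, a hypoxia-responsive kinase, was at 43.3, 42.0 and 33.4 CPM in Sham, 26.4 and 49.8 in bIRI, and 30.7, 23.6 and 21.0 in BHBNa_bIRI. The 2 bIRI libraries lay on either side of Sham, and the BHBNa_bIRI libraries lay wholly below Sham. In BHBNa_bIRI against Sham the log2 fold change of Pdk1 was -0.66 (SE 0.249, edgeR adjusted p = 0.0577), and DESeq2 called it lower. Pdk4, the kinase known to be induced by fasting and fatty acids (chromosome 6, 5483351 to 5496309), was at 80.4, 101 and 31.9 CPM in Sham, 144 and 41.8 in bIRI, and 41.6, 30.7 and 47.5 in BHBNa_bIRI. Its spread within Sham and within bIRI was wider than the differences between groups. The log2 fold change of Pdk4 in BHBNa_bIRI against bIRI was -1.22 with SE 0.529, and edgeR gave an adjusted p of 0.136.

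The phosphatases that switch the complex on moved in opposite directions. Pdp1 (chromosome 4, 11958184 to 11966452) was at 6.14, 7.63 and 5.99 CPM in Sham, 13.8 and 14.0 in bIRI, and 10.2, 9.67 and 9.29 in BHBNa_bIRI. It was the 1 gene of the 35 that was called higher after injury, 2.11-fold (log2 fold change 1.08, SE 0.200, edgeR adjusted p = 0.00331). In BHBNa_bIRI it lay between the other groups, 0.56 above Sham on the log2 scale (SE 0.182, edgeR adjusted p = 0.0320) and -0.52 from bIRI (edgeR adjusted p = 0.102). With length and GC trends removed, the difference from bIRI was 0.06 and that middle position was lost. The call against Sham in BHBNa_bIRI was lost when any Sham or BHBNa_bIRI library was left out, with edgeR adjusted p of 0.0514 to 0.116. Pdp2 was at 65.8, 51.9 and 48.8 CPM in Sham, 18.1 and 18.5 in bIRI, and 21.2, 18.0 and 14.4 in BHBNa_bIRI. It fell by 1.60 on the log2 scale after injury (SE 0.219, edgeR adjusted p = 0.000745).

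Pyruvate carboxylase, Pcx, had the largest fall of the 35 genes in both comparisons with Sham. The gene lies on chromosome 19, 4510472 to 4621752, plus strand. It was at 1105, 846 and 906 CPM in Sham, 123 and 123 in bIRI, and 103, 123 and 134 in BHBNa_bIRI. The 5 injured libraries fell within 103 to 134 CPM, far under the lowest Sham library. Pcx was 7.74-fold lower in bIRI than in Sham (log2 fold change -2.95, SE 0.240, edgeR adjusted p = 7.79e-05). It was 7.95-fold lower in BHBNa_bIRI than in Sham (-2.99, SE 0.204, edgeR adjusted p = 1.66e-05). Between the injured groups the log2 fold change was -0.04 with SE 0.212.

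Of the 5 genes that form citrate or act between citrate and 2-oxoglutarate in mitochondria, 4 fell after injury and Idh3a was not called. Cs, citrate synthase and the entry enzyme of the cycle (chromosome 10, 128337734 to 128362479), was at 437, 413 and 421 CPM in Sham, 293 and 262 in bIRI, and 365, 309 and 361 in BHBNa_bIRI. The 3 groups did not overlap, with BHBNa_bIRI between the other 2. Cs was 1.52-fold lower in bIRI (log2 fold change -0.61, SE 0.189, edgeR adjusted p = 0.0324). Its other differences were not called, at -0.30 for BHBNa_bIRI against Sham (edgeR adjusted p = 0.176) and 0.31 for BHBNa_bIRI against bIRI (edgeR adjusted p = 0.264). The Cs call was lost under more alternatives than any other of the 28, among them without Sham 1, 2 or 3 or BHBNa_bIRI 1 (edgeR adjusted p of 0.0992, 0.0859, 0.0745 and 0.0553).

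Among the mitochondrial isocitrate dehydrogenases, Idh2, Idh3b and Idh3g fell after injury. Idh2, the NADP-dependent mitochondrial enzyme (chromosome 7, 80094846 to 80115392), was at 736, 710 and 717 CPM in Sham, 180 and 214 in bIRI, and 187, 163 and 215 in BHBNa_bIRI. It was 3.66-fold lower in bIRI than in Sham (log2 fold change -1.87, SE 0.215, edgeR adjusted p = 0.000318), and the injured groups overlapped. Idh3a encodes the catalytic subunit of the NAD-dependent enzyme, and Idh3b and Idh3g its other subunits. Idh3b was at 417, 404 and 403 CPM in Sham, 141 and 149 in bIRI, and 147, 135 and 138 in BHBNa_bIRI. Idh3g was at 342, 339 and 380 CPM in Sham, 160 and 105 in bIRI, and 175, 152 and 190 in BHBNa_bIRI. Idh3a was at 186, 167 and 184 CPM in Sham, 136 and 163 in bIRI, and 145, 125 and 111 in BHBNa_bIRI. Injured libraries were below Sham in all 3 genes, but by a much smaller step in Idh3a. The log2 fold changes of bIRI against Sham were -1.50 for Idh3b (edgeR adjusted p = 0.000363), -1.42 for Idh3g (edgeR adjusted p = 0.00178) and -0.26 for Idh3a (edgeR adjusted p = 0.315).

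All 5 genes from 2-oxoglutarate to succinate fell after injury. Ogdh, the first component of the 2-oxoglutarate dehydrogenase complex, was at 881, 772 and 733 CPM in Sham, 290 and 401 in bIRI, and 325, 280 and 353 in BHBNa_bIRI. Dlst, its succinyl-transferring component, was at 615, 546 and 476 CPM in Sham, 264 and 253 in bIRI, and 185, 197 and 187 in BHBNa_bIRI. Ogdh fell by 1.20 and Dlst by 1.08 on the log2 scale in bIRI against Sham (edgeR adjusted p = 0.00410 and 0.00308). For Dlst the BHBNa_bIRI libraries were also all below the bIRI libraries, with a log2 fold change of -0.45 that was not called (edgeR adjusted p = 0.127).

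Succinyl-CoA ligase pairs the shared alpha subunit, encoded by Suclg1, with an ATP-forming beta subunit, Sucla2, or a GTP-forming one, Suclg2. Suclg1 was at 497, 448 and 458 CPM in Sham, 161 and 147 in bIRI, and 181, 155 and 157 in BHBNa_bIRI. Suclg2 was at 538, 466 and 455 CPM in Sham, 279 and 179 in bIRI, and 224, 228 and 215 in BHBNa_bIRI. Sucla2 (chromosome 14, 73525319 to 73596142) was at 144, 140 and 136 CPM in Sham, 80.6 and 94.6 in bIRI, and 59.4, 60.2 and 55.7 in BHBNa_bIRI. Of these 3 genes, only Sucla2 had libraries that formed 3 separate steps, from Sham down to bIRI and on down to BHBNa_bIRI. The log2 fold changes of bIRI against Sham were -1.60 for Suclg1, -1.09 for Suclg2 and -0.68 for Sucla2 (edgeR adjusted p = 0.000381, 0.00655 and 0.0104). Sucla2 was 1.50-fold lower in BHBNa_bIRI than in bIRI (log2 fold change -0.58, SE 0.156, edgeR adjusted p = 0.0409). Suclg2 shares sequence with a predicted copy, Gm15163, which was counted at 2.64 to 34.9 CPM.

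All 6 genes from succinate to oxaloacetate fell after injury. Succinate dehydrogenase has a flavin subunit, Sdha, an iron-sulfur subunit, Sdhb, and 2 membrane anchors, Sdhc and Sdhd. Sdha (chromosome 13, 74322254 to 74350280) was at 989, 1004 and 874 CPM in Sham, 292 and 366 in bIRI, and 224, 221 and 217 in BHBNa_bIRI. Sdhb (chromosome 4, 140961203 to 140979193) was at 519, 541 and 599 CPM in Sham, 189 and 136 in bIRI, and 325, 256 and 338 in BHBNa_bIRI. The pretreated libraries were thus the lowest of the 3 groups for Sdha and the middle ones for Sdhb, with no overlap in either gene. In bIRI against Sham, Sdha fell by 1.54 and Sdhb by 1.77 on the log2 scale (SE 0.210 and 0.238, edgeR adjusted p = 0.000731 and 0.000700). In BHBNa_bIRI against bIRI, Sdhb was 1.89-fold higher (log2 fold change 0.92, SE 0.230, edgeR adjusted p = 0.0361), the only rise called among the 35. Sdha had -0.58 in the same comparison (SE 0.196, edgeR adjusted p = 0.0739). Against Sham, both were called lower in BHBNa_bIRI, at -2.12 for Sdha and -0.85 for Sdhb (edgeR adjusted p = 4.51e-05 and 0.00796).

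Of the anchors, Sdhc had the group order of Sdhb, and Sdhd that of Sdha. Sdhc was at 624, 650 and 769 CPM in Sham, 267 and 161 in bIRI, and 338, 320 and 409 in BHBNa_bIRI. Sdhd was at 441, 395 and 352 CPM in Sham, 172 and 150 in bIRI, and 150, 138 and 145 in BHBNa_bIRI. The BHBNa_bIRI libraries of Sdhc lay above both bIRI libraries, and those of Sdhd lay just below them. The log2 fold changes of BHBNa_bIRI against bIRI were 0.73 for Sdhc and -0.15 for Sdhd, neither called (edgeR adjusted p = 0.0827 and 0.583). In bIRI against Sham they fell by 1.67 and 1.30 (edgeR adjusted p = 0.00169 and 0.00109).

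Fumarase and mitochondrial malate dehydrogenase close the cycle. Fh1 was at 298, 318 and 327 CPM in Sham, 213 and 97.5 in bIRI, and 162, 153 and 174 in BHBNa_bIRI, so the bIRI libraries lay on either side of the pretreated ones. Mdh2 was at 594, 617 and 721 CPM in Sham, 395 and 257 in bIRI, and 559, 397 and 478 in BHBNa_bIRI. Both fell in bIRI against Sham, by 1.02 for Fh1 and 0.98 for Mdh2 on the log2 scale (edgeR adjusted p = 0.0257 and 0.0169). The Fh1 call was lost without Sham 1, 2 or 3 (edgeR adjusted p of 0.0575, 0.0647 and 0.0668) and the Mdh2 call without Sham 3 (0.0550). In BHBNa_bIRI against Sham, Mdh2 was at -0.43 and was not called (edgeR adjusted p = 0.148), while Fh1 was called lower at -0.95 (edgeR adjusted p = 0.0156). That Fh1 call was lost without BHBNa_bIRI 1 or 2 (edgeR adjusted p of 0.0534 and 0.0567).

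All 5 cytosolic genes fell after injury. Mdh1, cytosolic malate dehydrogenase of the malate-aspartate shuttle (chromosome 11, 21556787 to 21572367), was at 1595, 1597 and 1667 CPM in Sham, 428 and 374 in bIRI, and 442, 393 and 393 in BHBNa_bIRI. Me1, the malic enzyme that makes NADPH and pyruvate (chromosome 9, 86581371 to 86695953), was at 891, 826 and 802 CPM in Sham, 201 and 206 in bIRI, and 125, 152 and 180 in BHBNa_bIRI. Mdh1 was 4.04-fold and Me1 4.13-fold lower in bIRI than in Sham (SE 0.214 and 0.227 on the log2 scale, edgeR adjusted p = 0.000233 and 0.000278). The Me1 libraries of BHBNa_bIRI lay below those of bIRI, and the log2 fold change of -0.42 was not called (edgeR adjusted p = 0.186).

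Aco1, which interconverts citrate and isocitrate in the cytosol and binds iron-responsive elements when it lacks its iron-sulfur cluster, was at 622, 567 and 547 CPM in Sham, 187 and 158 in bIRI, and 185, 180 and 161 in BHBNa_bIRI. Idh1, the NADPH-forming cytosolic isocitrate dehydrogenase, was at 948, 762 and 902 CPM in Sham, 436 and 250 in bIRI, and 545, 492 and 438 in BHBNa_bIRI. Acly, which splits citrate into acetyl-CoA for lipid synthesis, was at 260, 201 and 174 CPM in Sham, 115 and 112 in bIRI, and 72.7, 80.0 and 66.1 in BHBNa_bIRI. The injured groups overlapped for Aco1, while BHBNa_bIRI lay above bIRI for Idh1 and below it for Acly. In bIRI against Sham the log2 fold changes were -1.75 for Aco1, -1.35 for Idh1 and -0.90 for Acly (edgeR adjusted p = 0.000315, 0.00558 and 0.00977). In BHBNa_bIRI against bIRI they were 0.02, 0.52 and -0.64, none of them called (edgeR adjusted p = 0.946, 0.198 and 0.0621). Idh1 was called lower in BHBNa_bIRI against Sham (-0.82, edgeR adjusted p = 0.0200), and that call was lost without Sham 1, Sham 3, BHBNa_bIRI 2 or BHBNa_bIRI 3 (edgeR adjusted p of 0.0755, 0.0560, 0.0580 and 0.0728). Idh3a, at -0.49 in that comparison (edgeR adjusted p = 0.0379), lost its call without Sham 1, 2 or 3 or BHBNa_bIRI 2 or 3 (edgeR adjusted p of 0.0761 to 0.123). Its call was also lost with length and GC trends removed, at -0.19 (edgeR adjusted p = 0.307).

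Genes could be compared with each other only per length, as CPM per kb of exonic sequence. On that scale Mdh1 was the most abundant of the 35 in Sham at 631 ± 16.1 CPM per kb (SD, n = 3). Sdhd at 322 ± 36.0, Idh1 at 342, 275 and 325 in the 3 libraries, and Idh2 at 279 ± 5.26 CPM per kb followed, and these neighbours overlapped. Sdhb at 247 ± 18.5 CPM per kb was below Idh2 and overlapped Sdha at 232 ± 17.3. The lowest were Pdk1 at 5.09 ± 0.690 and Pdp1 at 1.46 ± 0.200 CPM per kb, each below the gene before it. The order depends on the exonic length taken for each gene, which sums all annotated transcripts.

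Ratios within a library do not depend on how libraries are scaled. The Sdhb to Sdha ratio of CPM per kb was 0.967, 0.993 and 1.26 in Sham, 1.19 and 0.682 in bIRI, and 2.68, 2.14 and 2.87 in BHBNa_bIRI. The Pdha1 to Pdhb ratio was 1.46, 1.33 and 1.06 in Sham, 1.44 and 2.03 in bIRI, and 0.773, 1.02 and 0.798 in BHBNa_bIRI. The pretreated libraries were thus apart from both other groups in each ratio, while Sham and bIRI overlapped. The same held for Sdhc to Sdha, at 0.801 to 1.12 in Sham, 1.16 and 0.557 in bIRI, and 1.84 to 2.39 in BHBNa_bIRI. It also held for Mpc2 to Mpc1, at 0.991 to 1.15 in Sham, 1.04 and 0.893 in bIRI, and 1.25 to 1.78 in BHBNa_bIRI. The Mpc1 counts in that ratio carry the uncertainty about Mpc1-ps given above.

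Other ratios separated injured from sham kidneys. The cytosolic to mitochondrial malate dehydrogenase ratio, Mdh1 to Mdh2, was 3.72, 3.59 and 3.21 in Sham, 1.50 and 2.02 in bIRI, and 1.10, 1.38 and 1.14 in BHBNa_bIRI. Idh3b to Idh3a was 3.33, 3.58 and 3.25 in Sham, 1.54 and 1.35 in bIRI, and 1.50, 1.60 and 1.84 in BHBNa_bIRI. Pdk2 to Pdk4 was 5.18, 3.84 and 12.6 in Sham, 0.441 and 1.99 in bIRI, and 1.71, 2.35 and 1.99 in BHBNa_bIRI. Sham was above all injured libraries in these 3 ratios. The ratios are a description and carry no test. They do carry any trend in transcript length and GC content. With such trends removed, the log2 difference between BHBNa_bIRI and bIRI went from 1.49 to 0.64 for Sdhb to Sdha, from -1.03 to -0.54 for Pdha1 to Pdhb, from 0.58 to 0.37 for Mpc2 to Mpc1, and from -0.52 to 0.14 for Mdh1 to Mdh2. For Sdhc to Sdha it was 1.31 before and 1.34 after. For Pdk2 to Pdk4 it went from 1.33 to 0.65. For Idh3b to Idh3a it went from 0.19 to -0.39, and for Idh3g to Idh3a from 0.61 to -0.05. The planned ratios Idh1 to Idh2 and Suclg2 to Sucla2 are not listed by library. Their differences went from 0.59 to 1.29 and from 0.54 to 0.68. The ratios Sdhc to Sdha, Idh3b to Idh3a and Idh3g to Idh3a were added after their values had been seen.

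**Figure D3:**
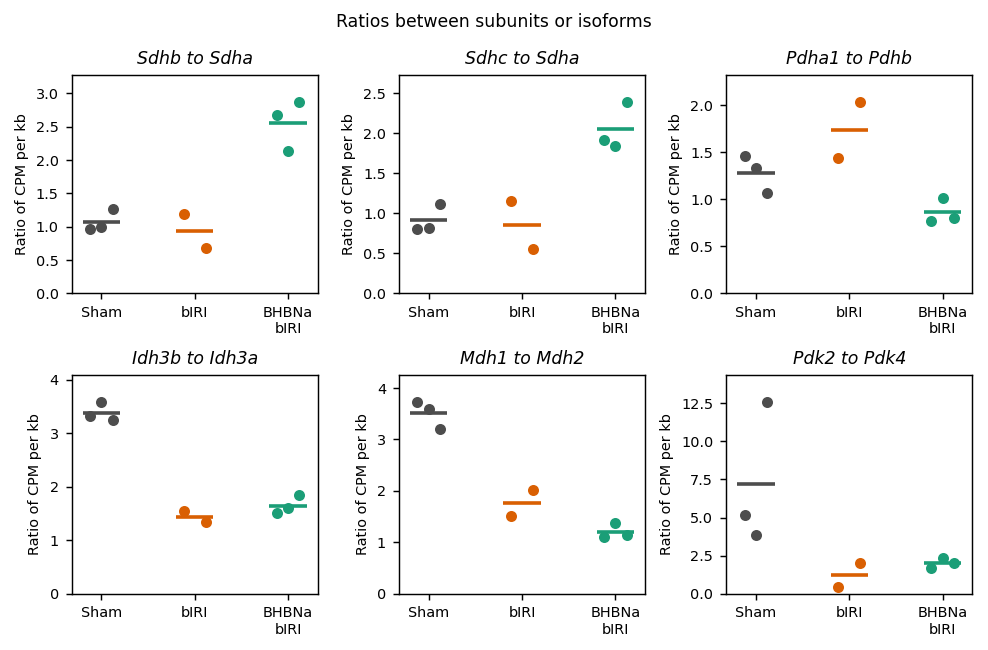
Ratios of CPM per kb between subunits or isoforms, 1 point per library and a line at each group's mean, with linear axes from 0. Sdhb to Sdha is 2.14 to 2.87 in BHBNa_bIRI and at most 1.26 elsewhere, and Mdh1 to Mdh2 is at least 3.21 in Sham and at most 2.02 elsewhere.

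Transcript length moved with the pretreatment difference. Over the 35 genes, Spearman's rho between transcript length and the log2 fold change of BHBNa_bIRI against bIRI was -0.41, and with GC content it was 0.52. Over 12940 expressed genes the same values were -0.52 and 0.44. These describe genes that share libraries, and they carry no test. Sdhb, the 1 gene called higher, has a transcript of 1142 bases. Pdha1, Dld and Sucla2, called lower, have 2848, 2544 and 2229 bases, and the median of the 35 is 2580. Of the 18 genes at or below that length 8 had a log2 fold change above 0 (median -0.06), and of the 17 longer genes 4 did (median -0.42).

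After removal of smooth length and GC trends from each library, edgeR called 0 of the 35 in BHBNa_bIRI against bIRI, with 14 at an unadjusted p under 0.05, and 2 of all genes. Sdhb then had a log2 fold change of 0.18 (edgeR adjusted p = 0.415), and Sdhc, at 3171 bases, had 0.88 (edgeR adjusted p = 0.0765). Pdha1 had -0.92 (edgeR adjusted p = 0.0582), Dld had -0.65 (edgeR adjusted p = 0.0532) and Sucla2 had -0.40 (edgeR adjusted p = 0.124). Sdhb was thus the value that shrank most of the 4. The direction of 8 genes turned, from above to below 0 for Mpc2 (-0.23), Pdk2 (-0.25), Idh3g (-0.14), Suclg1 (-0.27) and Mdh2 (-0.03), and from below to above 0 for Pdp1 (0.06), Pdp2 (0.43) and Suclg2 (0.28). None of the 8 was called in either fit. In the same fit, 27 of the 35 were called lower in bIRI against Sham and 28 in BHBNa_bIRI against Sham, while Pdp1 was no longer called higher in bIRI (edgeR adjusted p = 0.0542). After the removal, Spearman's rho between transcript length and the log2 fold change of BHBNa_bIRI against bIRI was 0.26 over the 35 genes. It was -0.41 as fitted, so a relation of the opposite sign remained among these genes. The part of length and GC content in the differences was not tested further.

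**Figure D4:**
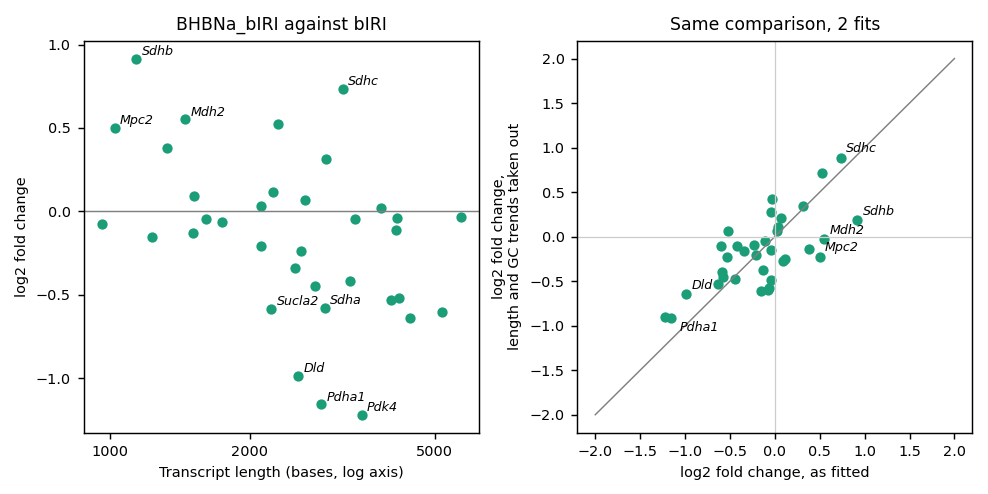
Left, log2 fold change of BHBNa_bIRI against bIRI for the 35 genes by transcript length in bases on a log axis. Right, the same log2 fold change before (horizontal) and after (vertical) length and GC trends were taken out, with a line of equality: Sdhb moves from 0.92 to 0.18 while Pdha1 moves from -1.16 to -0.92.

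Partners of the pathway were taken from a list of 29 genes, of which 28 were tested and Mdh1b was too low to test. In bIRI against Sham edgeR called 16 lower and 1 higher, with a median log2 fold change of -1.03. In BHBNa_bIRI against bIRI it called 2 lower and 1 higher, and in BHBNa_bIRI against Sham 19 lower and 1 higher. In the same order, 16.2%, 8.65% and 22.2% of all genes tested were called lower, and 18.9%, 4.88% and 21.3% higher. The calls between the injured groups were no larger a share of the 28 than of all genes. Pck1, the cytosolic gluconeogenic enzyme that uses the oxaloacetate made by Pcx, was at 4254, 3614 and 5527 CPM in Sham, 1451 and 742 in bIRI, and 690, 959 and 626 in BHBNa_bIRI. It fell by 2.03 after injury (edgeR adjusted p = 0.00320), and its difference of -0.53 between the injured groups was not called (edgeR adjusted p = 0.295).

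Other partners were called as well. Dhtkd1, a 2-oxoadipate dehydrogenase related to Ogdh, and Acss2, which makes acetyl-CoA from acetate in the cytosol, fell by 3.09 and 2.99 on the log2 scale in bIRI against Sham (edgeR adjusted p = 0.000706 and 0.000233). Me2, the mitochondrial malic enzyme, was the 1 partner called higher there, at 1.11 (edgeR adjusted p = 0.0151). In BHBNa_bIRI against bIRI, Pck2, the mitochondrial form of Pck1, was called higher at 1.04 (edgeR adjusted p = 0.0303). Got1, the cytosolic aminotransferase of the malate-aspartate shuttle, and Acss1, the mitochondrial acetyl-CoA synthetase, were called lower at -0.65 and -1.18 (edgeR adjusted p = 0.0430 and 0.0361). Of 18 alternative settings, Pck2 was called in 9, Acss1 in 8 and Got1 in 5, and none of the 3 was called with a replicate block, with length and GC trends removed, or without Sham 1, Sham 2, bIRI 3, BHBNa_bIRI 1 or BHBNa_bIRI 3. Oxct1, which activates ketone bodies to acetoacetyl-CoA for entry into the cycle, was at 926, 1041 and 909 CPM in Sham, 312 and 432 in bIRI, and 230, 241 and 318 in BHBNa_bIRI. Its BHBNa_bIRI and bIRI libraries overlapped, and Oxct1, Me2, Pck2 and Got1 are named after their values were seen.

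Among 12 genes for regulators of oxidative metabolism, edgeR called 4 lower and 2 higher in bIRI against Sham. It called 5 lower and 1 higher in BHBNa_bIRI against bIRI, and 8 lower and 0 higher in BHBNa_bIRI against Sham. In the same order, 16.2%, 8.65% and 22.2% of all genes tested were called lower, and 18.9%, 4.88% and 21.3% higher. Esrra, a nuclear receptor that binds genes of oxidative metabolism, was at 137, 131 and 145 CPM in Sham, 55.7 and 77.0 in bIRI, and 114, 96.2 and 124 in BHBNa_bIRI. It fell by 1.05 after injury (edgeR adjusted p = 0.00400) and was the 1 regulator called higher with the pretreatment, at 0.75 (edgeR adjusted p = 0.0410). Esrrg, Esrrb and Gabpa went the other way in BHBNa_bIRI against bIRI and were called lower, at -1.17, -1.93 and -1.01. Those calls held in 8, 6 and 10 of the 18 alternatives. With length and GC trends removed the values were -0.54, -1.92 and -0.41, and none was called. Without bIRI 3 they were -0.77, -0.68 and -1.01. Esrra was called in 8 of the 18 alternatives. It had 0.22 with length and GC trends removed (edgeR adjusted p = 0.523), and was not called without Sham 1, 2 or 3 or BHBNa_bIRI 1, 2 or 3 (edgeR adjusted p of 0.0535 to 0.128). Ppargc1a, a coactivator of that receptor, was at 36.6, 40.6 and 30.7 CPM in Sham, 18.4 and 79.3 in bIRI, and 14.1, 12.8 and 11.9 in BHBNa_bIRI. The bIRI libraries lay on either side of Sham, and the fall of 1.92 in BHBNa_bIRI against bIRI (edgeR adjusted p = 0.0339) was measured with bIRI 3 as the highest of all 8 libraries. Without bIRI 3 it was -0.51 (edgeR adjusted p = 0.133), and the call held in 6 of the 18 alternatives. Hif1a, a hypoxia-inducible factor known to induce Pdk1, was called higher in bIRI against Sham at 1.49 and lower in BHBNa_bIRI against bIRI at -1.06 (edgeR adjusted p = 0.00286 and 0.0359), and the second call held in 8 of the 18 alternatives.

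Some cell type markers and library make-up moved with these results, and their part in them was not tested. Beside the marker counts below, 16.2% of all genes tested were called lower and 18.9% higher after injury. Between the injured groups these shares were 8.65% and 4.88%. The 10 markers of the S1 and S2 proximal tubule summed to 37128 to 56698 CPM in Sham, 24982 and 9554 in bIRI 1 and 3, and 22444 to 35630 in BHBNa_bIRI, and 9 of 10 fell after injury while none was called between the injured groups. Kap, the 1 marker not called after injury, made up most of these sums, at 22687 to 43829 CPM in Sham, 8216 and 23331 in bIRI 3 and 1, and 20501 to 33948 in BHBNa_bIRI. Without it, a choice made after its values were seen, the other 9 summed to 12174 to 14441 CPM in Sham, 1338 to 1652 in bIRI and 1682 to 1943 in BHBNa_bIRI. The 6 S3 markers summed to 3616 to 4556, 402 to 475 and 273 to 438 CPM in the same order, and 4 of 6 fell after injury. In BHBNa_bIRI against bIRI, 2 of 6 S3 markers, 3 of 5 thick ascending limb markers and 1 of 4 distal convoluted tubule markers fell. The 5 thick ascending limb markers summed to 2177 to 3722 CPM in Sham, 1544 and 4406 in bIRI 1 and 3, and 316 to 907 in BHBNa_bIRI. The 5 fibroblast and pericyte markers summed to 144 to 161, 246 to 422 and 365 to 511 CPM. Of these, 2 of 5 were called higher after injury and 1 of 5 lower in BHBNa_bIRI against bIRI. None of the 6 collecting duct, 5 podocyte, 5 endothelial or 7 macrophage and monocyte markers was called in BHBNa_bIRI against bIRI. The 6 neutrophil markers summed to 0.799 to 1.65, 4.34 to 10.3 and 35.5 to 60.3 CPM, and 3 of the 4 tested rose in each step, with Ly6g and Mpo at 0 in all Sham libraries. Mitochondrially encoded transcripts took 11.2 to 13.3% of counts in Sham, 15.9% in each bIRI library and 24.0 to 30.3% in BHBNa_bIRI, while the 35 genes took 1.31 to 1.45%, 0.667 and 0.730%, and 0.484 to 0.580%.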

How the data were processed

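RNA from mouse kidney was sequenced as paired-end libraries of oligo(dT)-selected RNA, per the labels' protocols. The authors deposited raw read counts per gene, 1 table for each of 9 libraries. Per the submitters' processing notes, HISAT2, featureCounts of Subread, and DESeq2 were used with mm10. Tool versions, annotation and strandedness are not given in the sources used here. Symbols, positions and lengths came from GENCODE M21, which named 29220 of 29678 identifiers, and 17928 of the genes tested had a length and GC content.

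Genes were filtered with filterByExpr and scaled by TMM in edgeR 4.0.16 (R 4.3.3). A quasi-likelihood model with robust dispersion was fitted to 8 libraries (5 residual degrees of freedom, biological coefficient of variation 0.296). Each of the 3 comparisons was a contrast in it, tested two-sided and adjusted by Benjamini-Hochberg over 17967 genes at 0.05. The design had named bIRI replicate 2 as left out. Standard errors were the log2 fold change divided by the square root of F. The procedure was tested on simulated data. Total counts allow a floor of 3 counts at 0.0646 to 0.0815 CPM.

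The 35 genes and all lists were chosen with earlier results of these data known. Values by library were given, within each role, for up to 4 called genes of largest change and always for Cs, Sdha, Sdhb and Pdk1 to Pdk4. Of partners and regulators, up to 5 called genes per comparison were eligible, and Pck1, Ppargc1a and Esrra were always given. A further partner gene is not reported here. Values of the remaining genes of the 35 were added afterwards. Alternatives were DESeq2 1.42.0, RLE factors, scaling without mitochondrially encoded and the 20 most abundant genes, other filters, the compared groups alone, a replicate block, length and GC trends (natural splines with 5 degrees of freedom) as offsets, all 9 tables, and leaving out each library.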

Additional observations from a re-analysis of the deposited data

How the results depend on the processing

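The counts of genes called lower held against Sham: 25 to 28 of 35 in bIRI and 27 to 32 in BHBNa_bIRI over every alternative, leaving out single libraries included, and none of the 35 genes changed direction where it was called. Of bIRI calls, Cs was lost in 9 of 18 alternatives, Fh1 in 6, Dlat in 4, Pdp1 in 2, and Pdhb and Mdh2 in 1 each. The single gene called higher against Sham, Pdp1, gave 0 in bIRI with length and GC trends taken out. In BHBNa_bIRI it gave 0 with no filter on low counts, and 0 to 1 when single libraries were left out.

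The calls between the injured groups (3 lower, 1 higher) depended on the fit. They were 5 lower and 2 higher with DESeq2, 8 lower and 3 higher with all 9 tables, 0 and 0 with the compared groups only (7 of the 35 at an unadjusted p under 0.05), and 0 and 0 with length and GC trends taken out (14). Leaving out single libraries gave 0 to 5 lower and 0 to 7 higher. Among all genes, edgeR called 876 higher and 1555 lower as fitted, against 1 and 0 with the compared groups only. Adjusted p by edgeR or DESeq2 ran over the alternatives from 0.000432 to 0.145 for Pdha1 and from 0.000893 to 0.537 for Sdhb. The compared groups alone leave fewer libraries to estimate the spread. In BHBNa_bIRI against Sham, the same setting called 5083 genes higher and 4901 lower, beside 3829 and 3997 as fitted. The cause of these shifts was not tested.

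Same-numbered libraries did not deviate together (7 correlations of -0.206 to 0.0925), so the replicate numbers were not taken to pair samples. This check cannot exclude pairing, since deviations were taken from group means and those of the bIRI libraries mirror each other. Libraries with different numbers were not compared. With a replicate block, 26 genes were called lower and 1 higher in bIRI against Sham, 29 lower and 0 higher in BHBNa_bIRI against Sham, and 0 lower and 0 higher in BHBNa_bIRI against bIRI (9 at an unadjusted p under 0.05). With the replicate block and length and GC trends taken out together, the counts were 25 lower and 0 higher, 27 lower and 0 higher, and 0 lower and 0 higher (10 unadjusted).

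The smallest count of the 35 genes in a library was 232. The bIRI group had 2 usable libraries.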
